A study of Bos taurus with 15 samples.

Results

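The genes described here are 8 bovine genes for the ion pumps, ion transporters and water channels that fill the blastocoel, the fluid cavity of the blastocyst. They were the pump subunits ATP1B1 and ATP1B3, the pump regulator FXYD4, the cotransporter SLC12A2, the scaffold SLC9A3R1 and the water channels AQP3, AQP8 and AQP11. They were taken from the tables by symbol, with no threshold on a measured value. All 8 were among the 34773 genes of the unfiltered read count table, and 7 of them, all but AQP8, were among the 10832 genes that the authors kept after removing genes with low counts.

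The counts came from RNA-seq of bovine embryos produced in vitro and cultured without oviductal extracellular vesicles (Co), with freshly isolated oEVs (FeEV) or with oEVs that had been frozen and thawed (FoEV). The oEVs are membrane vesicles collected from the oviducts of slaughtered cows in the postovulatory stage. According to the paper, the fresh and the frozen oEVs came from the same oviducts, so FeEV and FoEV share their vesicle source. Each treatment had 5 libraries, each made from 1 ng of RNA of 1 pool of 8 to 14 blastocysts, and the labels place the embryos at day 7. The pools sequenced were the ones with the best RNA out of 6 Co, 7 FeEV and 8 FoEV pools. The libraries are called replicates 1 to 5 of their treatment after the sample titles. The replicates were separate pools, and nothing says whether they came from separate rounds of embryo production, so the p-values measure the spread between pools.

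The libraries held between 2136713 and 4058887 reads assigned to genes. Co libraries held 2571558 to 2977004 counts and FoEV libraries 3392613 to 4058887, so that depth moved with this comparison, whereas the FeEV totals (2136713 to 3808602) overlapped both. A gene with 3 counts reached a CPM (its count scaled to a common library total) of 0.739 to 1.40, depending on the library. Ribosomal RNA genes took 15.5% to 28.2% of the counts. All 8 markers of the trophectoderm, the outer epithelium of the blastocyst, passed the filter. Their summed level ran from 6486 to 8386 CPM in Co, from 6700 to 10477 CPM in FeEV and from 8037 to 12515 CPM in FoEV. Most of this sum came from the keratins KRT8 and KRT18, at means of 4266 and 2684 CPM in Co after the scaling described below. TFAP2A had a mean of 24.7 CPM ± 7.29 in Co, 19.1 CPM ± 8.24 in FeEV and 17.4 CPM ± 6.73 in FoEV (SD, n = 5), and the treatments overlapped. Of the markers of the oviduct epithelium, the source of the oEVs, 2 of 6 passed the filter. The summed level of all 6 was 14.8 to 25.2 CPM in Co, 10.5 to 28.5 CPM in FeEV and 12.8 to 21.7 CPM in FoEV. HSD11B2 had 4 counts over the 15 libraries, too few for its 0 in all FoEV libraries to show a difference. Of the cumulus and granulosa cell markers, 2 of 6 passed, with a summed level of all 6 of 23.2 to 47.1 CPM. PTX3 had 1 count over the 15 libraries, so its 0 in all Co and all FoEV libraries shows no difference either.

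The blastocoel forms when the trophectoderm seals and begins to move salt inwards. The Na/K-ATPase on the basolateral membrane pumps sodium out of the cells into the cavity, and water follows the gradient, in part through aquaporins. The pump is made of a catalytic alpha subunit and a beta subunit that brings it to the membrane, and small FXYD proteins tune its activity, whereas transporters of the SLC families supply the sodium and chloride. The comparisons ask whether oEV supplementation, fresh or frozen, went along with other mRNA levels of this machinery in the blastocyst. Pump activity was not measured, and in pooled whole embryos fewer cells of a type and less RNA per cell cannot be told apart.

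The levels below are CPM scaled by TMM, which corrects library totals for composition. Levels are compared between libraries and never between genes, since transcript lengths were not used. The log2 fold changes, their SE and their p-values came from 1 edgeR quasi-likelihood fit over the 15 libraries, with the Benjamini-Hochberg adjustment over all 10832 genes. FoEV vs. Co and FeEV vs. Co share their 5 Co libraries, so the values of both comparisons are not independent of each other.

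None of the 7 members tested passed an adjusted p of 0.05 in any of the 3 comparisons by edgeR's quasi-likelihood test, nor by its robust likelihood ratio test or the Wald test of DESeq2, which gave ATP1B1 no adjusted p in FoEV vs. Co. Among all genes, 0.00923% passed in FoEV vs. Co, 0% in FeEV vs. Co and 0% in FoEV vs. FeEV by the quasi-likelihood test. In FoEV vs. Co the robust likelihood ratio test called 311 and the Wald test 138 of the 10832 genes. At an unadjusted p under 0.05, 2 of 7 members passed in FoEV vs. Co, ATP1B1 and SLC12A2, both lower, where 15.1% of all genes passed and 6.88% passed as lower. In FeEV vs. Co 1 of 7 passed, ATP1B1, also lower, where 4.15% of all genes passed and 2.32% passed as lower. In FoEV vs. FeEV 0 of 7 passed, against 8.52% of all genes. No member had treatments that did not overlap, which was the case for 2.6%, 0.951% and 1.5% of all genes in the same order. The median log2 fold change of the 7 members was 0.05 in FoEV vs. Co, -0.09 in FeEV vs. Co and 0.10 in FoEV vs. FeEV, beside medians of 0.01, 0.00 and 0.01 over all genes.

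**Figure D1:**
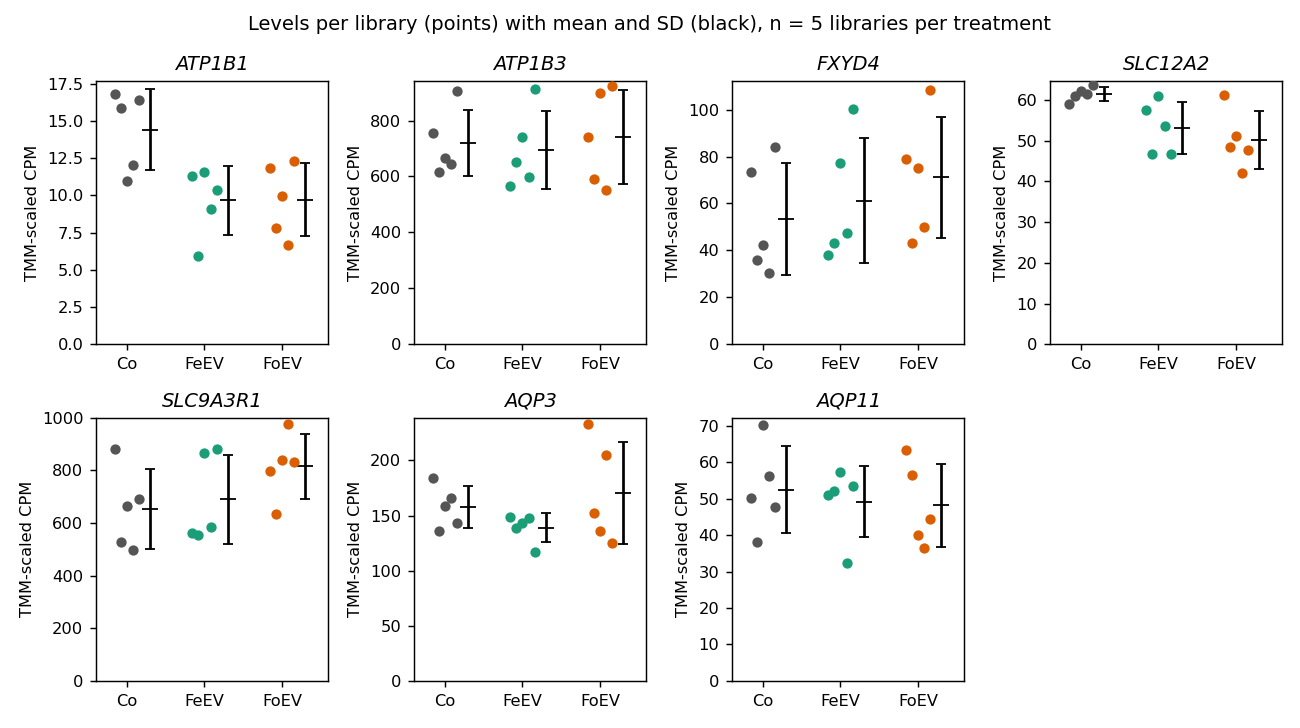
TMM-scaled CPM of the 7 tested members in each library (points; y axis, CPM; x axis, treatment), with the mean and SD of the 5 libraries of each treatment in black. ATP1B1 and SLC12A2 have lower means with oEVs than in Co, FXYD4 spreads from 30.5 to 108 CPM over the libraries, and in every panel the treatments overlap.

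Among the pump genes, ATP1B1 (gene 519758) encodes the beta subunit most widely paired with the alpha subunit in epithelia. In Co its levels were 16.8, 15.9, 10.96, 12.0 and 16.4 CPM in replicates 1 to 5. In FeEV they were 11.3, 5.94, 11.6, 9.11 and 10.3 CPM, and in FoEV 11.8, 7.82, 9.92, 6.68 and 12.3 CPM. The values of 3 Co libraries stood above those of every oEV library, and those of the other two, replicates 3 and 4, lay among the higher oEV values. The mean was 14.4 CPM ± 2.70 in Co, 9.66 CPM ± 2.29 in FeEV and 9.70 CPM ± 2.44 in FoEV (SD, n = 5). The log2 fold change of ATP1B1 was -0.56 in FoEV vs. Co (SE 0.21, 95% interval -0.997 to -0.119, edgeR adjusted p = 0.220). In FeEV vs. Co it was also -0.56 (SE 0.22, 95% interval -1.01 to -0.11, edgeR adjusted p = 1.00). FoEV and FeEV differed by 0.00 on the log2 scale (95% interval -0.45 to 0.45, adjusted p = 0.998). These levels rest on 16 to 51 reads per library, the fewest of the 7 members.

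The other beta subunit of the list, ATP1B3 (gene 532844), did not show this difference. Its mean was 718 CPM ± 118 in Co, 693 CPM ± 139 in FeEV and 741 CPM ± 170 in FoEV (SD, n = 5), and the libraries ran from 616 to 907 CPM, from 565 to 911 CPM and from 552 to 923 CPM. The log2 fold change of ATP1B3 was 0.05 in FoEV vs. Co (95% interval -0.29 to 0.38, edgeR adjusted p = 0.916), -0.05 in FeEV vs. Co (adjusted p = 1.00) and 0.10 in FoEV vs. FeEV (adjusted p = 0.883). A test of ATP1B1 against ATP1B3 was not made.

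FXYD4 (gene 100295639) encodes a small membrane protein of the FXYD family that binds the pump and alters its affinity for sodium. In Co its levels were 73.3, 36.1, 42.2, 30.5 and 84.1 CPM in replicates 1 to 5. In FeEV they were 38.1, 43.1, 77.3, 47.4 and 100.3 CPM, and in FoEV 79.0, 43.1, 74.9, 50.1 and 108 CPM. Each treatment held libraries with low and with high levels, and the highest library stood 3.55-fold above the lowest. The mean was 53.3 CPM ± 23.9 in Co, 61.2 CPM ± 26.6 in FeEV and 71.1 CPM ± 25.9 in FoEV (SD, n = 5). FXYD4 had a log2 fold change of 0.42 in FoEV vs. Co (SE 0.36, 95% interval -0.36 to 1.21, edgeR adjusted p = 0.610), 0.22 in FeEV vs. Co (adjusted p = 1.00) and 0.21 in FoEV vs. FeEV (adjusted p = 0.887). With single libraries left out, the value ranged from 0.22 (without FoEV replicate 5) to 0.64 (without Co replicate 5) in FoEV vs. Co and from 0.01 (without FoEV replicate 5) to 0.46 (without FeEV replicate 5) in FoEV vs. FeEV. The differences were smaller than the spread within each treatment.

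Most members varied more between libraries of a treatment than most genes of a like level, FXYD4 above all. Its coefficient of variation between libraries of 1 treatment averaged 41.6%, while 3707 genes with a mean level within 2-fold of its own had a median of 12.9%, and 99.2% of them varied less. SLC9A3R1 (20.9%), ATP1B3 (19.8%), AQP11 (22.05%) and AQP3 (16.2%) were also high for their levels, at which 94.3%, 92.1%, 90.04% and 84.6% of genes varied less. ATP1B1 (22.5%) was near the middle, with 51.03% of such genes below it. SLC12A2 varied least of the 7, with 9.63%, and 15.1% of the genes near its level varied less.

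**Figure D2:**
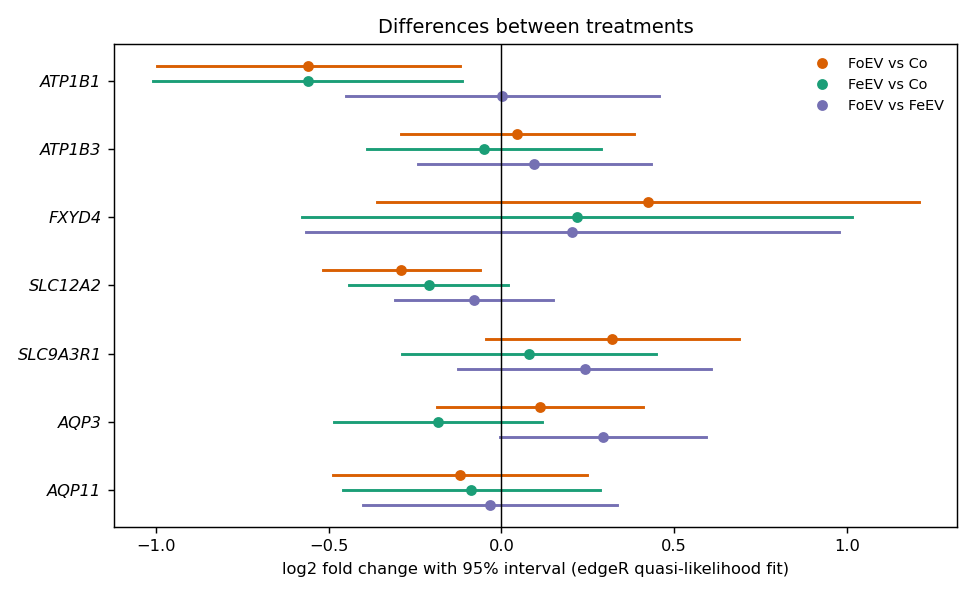
Log2 fold change of each tested member (points) with its 95% interval (lines) from the edgeR fit in FoEV vs. Co, FeEV vs. Co and FoEV vs. FeEV, on the x axis. The intervals of ATP1B1 against Co and of SLC12A2 in FoEV vs. Co lie below 0, and all others include 0.

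SLC12A2 (gene 286845) encodes NKCC1, which carries sodium, potassium and chloride together into the cell. In Co its levels were 59.1, 61.1, 62.2, 61.4 and 63.6 CPM in replicates 1 to 5. In FeEV they were 57.5, 46.8, 61.0, 53.7 and 46.6 CPM, and in FoEV 61.4, 48.4, 51.2, 42.1 and 47.7 CPM. The Co libraries lay close together, and 4 of 5 libraries of each oEV treatment stood below all of them, with FeEV replicate 3 and FoEV replicate 1 inside the Co range. The mean was 61.5 CPM ± 1.67 in Co, 53.1 CPM ± 6.40 in FeEV and 50.2 CPM ± 7.09 in FoEV (SD, n = 5). The log2 fold change of SLC12A2 was -0.29 in FoEV vs. Co (SE 0.11, 95% interval -0.52 to -0.06, edgeR adjusted p = 0.220) and -0.21 in FeEV vs. Co (SE 0.11, edgeR adjusted p = 1.00). FoEV and FeEV differed by -0.08 (95% interval -0.31 to 0.15, adjusted p = 0.850). With all libraries thinned in 1 random draw to the smallest total count, the log2 fold change of SLC12A2 in FoEV vs. Co was -0.41. In the 10 alternatives that left out no single library, this value ran from -0.41 to -0.29. Over the 15 libraries, the deviations of SLC12A2 from its treatment means ran against the share of ribosomal RNA (Pearson r = -0.67). The part of that share in the difference was not tested.

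SLC9A3R1 (gene 505242; NHERF1 in the reference) encodes a scaffold that ties exchangers and channels of the apical membrane to ezrin and the actin cortex. Its levels ran from 499 to 880 CPM in Co, from 554 to 882 CPM in FeEV and from 633 to 977 CPM in FoEV. The means were 653 CPM ± 152, 690 CPM ± 169 and 816 CPM ± 123 (SD, n = 5). FoEV replicate 4 alone stood above all Co libraries, and no FoEV library stood below all of them. For SLC9A3R1 the log2 fold change was 0.32 in FoEV vs. Co (SE 0.17, 95% interval -0.05 to 0.69, edgeR adjusted p = 0.393), 0.08 in FeEV vs. Co (adjusted p = 1.00) and 0.24 in FoEV vs. FeEV (adjusted p = 0.694). In FoEV vs. Co SLC9A3R1 passed the unadjusted threshold with the robust likelihood ratio test (0.37 on the log2 scale, adjusted p = 0.157) and when FoEV and Co were fitted alone (0.32, adjusted p = 0.346). Of the 8 trophectoderm markers, 7 were also higher in FoEV vs. Co, with a median of 0.20 on the log2 scale, 3 at an unadjusted p under 0.05 (GATA3, KRT8 and KRT18) and 0 at an adjusted p under 0.05. Of all 10832 genes, 5665 were higher in this comparison and 886 passed the unadjusted threshold as higher. In the same comparison 3 of 5 tested inner cell mass markers and 4 of 5 tested hypoblast markers were lower, as were 5167 of all genes. NANOG was at -0.84 (edgeR adjusted p = 0.178), PRDM14 at -0.24 and SOX2 at -0.03. KLF17 (0.004) and POU5F1 (0.21) of the inner cell mass and GATA4 (0.32) of the hypoblast were not lower. The markers' part in the difference of SLC9A3R1 was not tested.

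Of the water channels, AQP3 (gene 780866) encodes an aquaglyceroporin that lets water and glycerol through the plasma membrane. In FeEV its levels were 148, 139, 143, 148 and 117 CPM in replicates 1 to 5, in FoEV 233, 153, 136, 205 and 125.4 CPM, and in Co 184, 136, 159, 166 and 144 CPM. FoEV replicates 1 and 4 held the highest levels of all 15 libraries, while the other 3 FoEV libraries lay within the range of the remaining ones. The mean was 158 CPM ± 19.0 in Co, 139 CPM ± 12.8 in FeEV and 170 CPM ± 46.6 in FoEV (SD, n = 5). For AQP3 the log2 fold change was 0.29 in FoEV vs. FeEV (SE 0.14, 95% interval -0.00 to 0.59, edgeR adjusted p = 0.580), 0.11 in FoEV vs. Co (adjusted p = 0.744) and -0.18 in FeEV vs. Co (adjusted p = 1.00). The FoEV vs. FeEV value ranged from 0.15 (without FoEV replicate 1) to 0.39 (without FoEV replicate 5) when single libraries were left out, and without FoEV replicate 1 that of FoEV vs. Co was -0.03.

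AQP11 (gene 510038), an aquaporin of intracellular membranes, was at 52.5 CPM ± 11.9 in Co, 49.2 CPM ± 9.71 in FeEV and 48.1 CPM ± 11.4 in FoEV (SD, n = 5). Its log2 fold change was -0.12, -0.09 and -0.03 in FoEV vs. Co, FeEV vs. Co and FoEV vs. FeEV, all within the spread between pools. AQP8 (gene 450206), a channel for water and small solutes, had 2 counts in Co replicate 1, which is 0.689 CPM, and 1 count in FoEV replicate 5. The other 13 libraries held 0 counts. Its level was under the floor of 3 counts in every library, so that a difference of AQP8 between treatments was not detectable at this depth and no fold change is given.

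The whole families were read at the same depth. Of 12 aquaporin genes found by symbol, AQP3 and AQP11 passed the filter, and the other 10 reached at most 0.689 CPM in any library. Of 4 beta subunit genes ATP1B1, ATP1B2 and ATP1B3 passed. Of 7 FXYD genes FXYD4 and FXYD6 passed, and the other 5 reached at most 2.22 CPM.

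**Figure D3:**
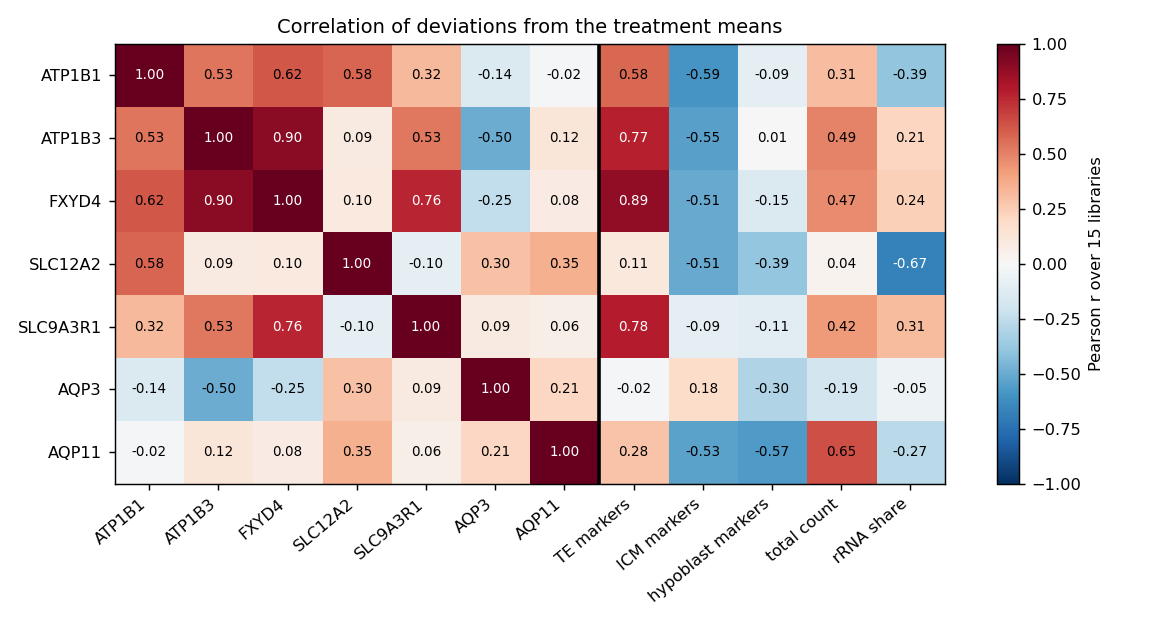
Pearson correlation over the 15 libraries between the members (left of the line), and of each member with the mean log2 CPM of trophectoderm (TE), inner cell mass (ICM) and hypoblast markers, the total count and the share of ribosomal RNA (right of the line), all as deviations from the treatment means. FXYD4 is closest to ATP1B3 (0.90) and to the mean of the trophectoderm markers (0.89).

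The members did not vary together as a group from pool to pool. The correlations were taken over the 15 libraries on log2 CPM as deviations from the treatment means, and they describe pools that share library preparation, depth and scaling with every gene in them. Among 21 pairs of members the median Pearson r was 0.12, and 6 pairs were over 0.5. FXYD4 and ATP1B3, a regulator and a beta subunit of the pump, had the highest correlation (r = 0.90), which was 0.92 within Co, 0.96 within FeEV and 0.90 within FoEV and stayed between 0.88 and 0.93 when single libraries were left out. FXYD4 and SLC9A3R1 followed (r = 0.76), with 0.84 within Co, 0.97 within FeEV and 0.30 within FoEV. ATP1B1 was at 0.62 with FXYD4, at 0.58 with SLC12A2 and at 0.53 with ATP1B3. The lowest value was that of AQP3 with ATP1B3 (r = -0.50).

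**Figure D4:**
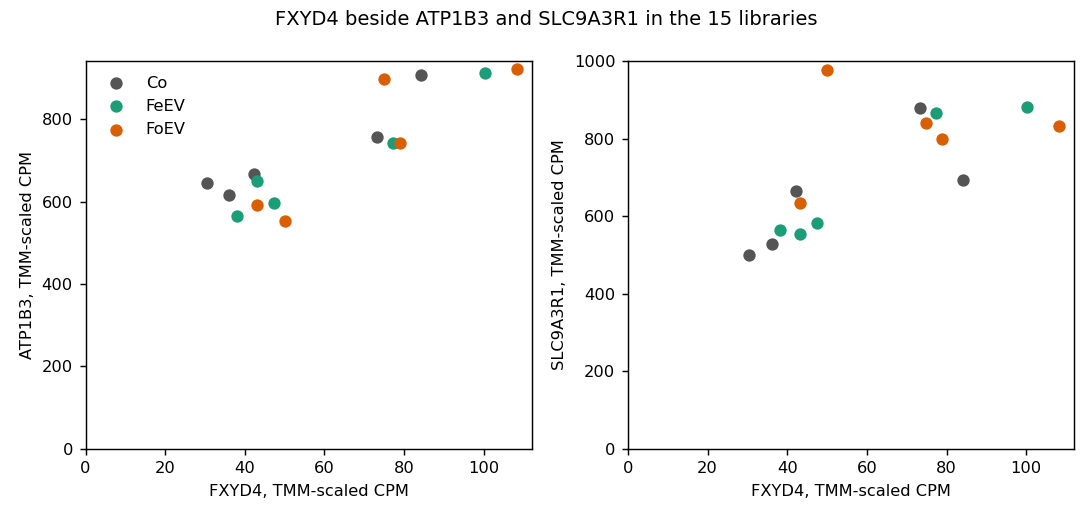
FXYD4 level (x axis, TMM-scaled CPM) beside that of ATP1B3 (left) and of SLC9A3R1 (right; y axes, TMM-scaled CPM), 1 point per library, coloured by treatment. ATP1B3 climbs with FXYD4 in each treatment, while with SLC9A3R1 FoEV replicate 4 (50.1 CPM of FXYD4, 977 CPM of SLC9A3R1) stands apart.

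Of the members in the pairs over 0.5, all but SLC12A2 also had positive correlations over 0.5 with the mean of the trophectoderm markers. The correlation with the mean log2 CPM of these 8 markers was 0.89 for FXYD4, 0.78 for SLC9A3R1, 0.77 for ATP1B3 and 0.58 for ATP1B1. It was 0.28 for AQP11, 0.11 for SLC12A2 and -0.02 for AQP3. Markers that vary widely, such as KRT19 (403 CPM ± 166 in Co), count for more in this mean than steady ones such as GATA3 (207 CPM ± 11.9; SD, n = 5). Single markers differed from the mean. In FeEV and in FoEV, FXYD4 was highest in replicate 5, where CDX2 and GATA3 were also highest but TFAP2C was lowest. Correlations with single markers were not taken. FXYD4 and ATP1B3 also had a moderate correlation with the total count of the library (r = 0.47 and 0.49), as AQP11 did (r = 0.65). With the inner cell mass markers, of which 5 of 6 passed the filter and whose summed level was 233 to 349 CPM, ATP1B1 was at -0.59 and ATP1B3 at -0.55. Of the hypoblast markers 5 of 6 passed, with a summed level of 4942 to 9454 CPM that was mostly FN1. With the mean of these markers, FXYD4 was at -0.15 and AQP11 at -0.57. The oviduct epithelium markers that passed the filter were PAX8 and CLDN10, both at low counts. Their mean ran against ATP1B3 (r = -0.81) and FXYD4 (r = -0.72) and with AQP3 (r = 0.52). In Co, cultured without oEVs, PAX8 was at 9.65 CPM and CLDN10 at 7.63 CPM on average. The share of each cell type in the pools was not measured, and the part of the marker genes in these values was not tested.

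The genes closest to ATP1B1 among 10831 others, by the same deviations over 15 libraries, were DECR1 (r = 0.92), OBI1 (r = 0.88) and PSRC1 (r = 0.85). Closest to AQP3 were SKI (r = 0.90), JUNB (r = 0.90) and OPTN (r = 0.89). These were picked as the highest of 10831 values over 15 libraries, a choice that by itself favours a high r, and no test was made. DECR1 and OBI1 were at low levels (mean log2 CPM 2.92 and 2.38), and ATP1B1 had 16 to 51 reads per library.

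**Figure D5:**
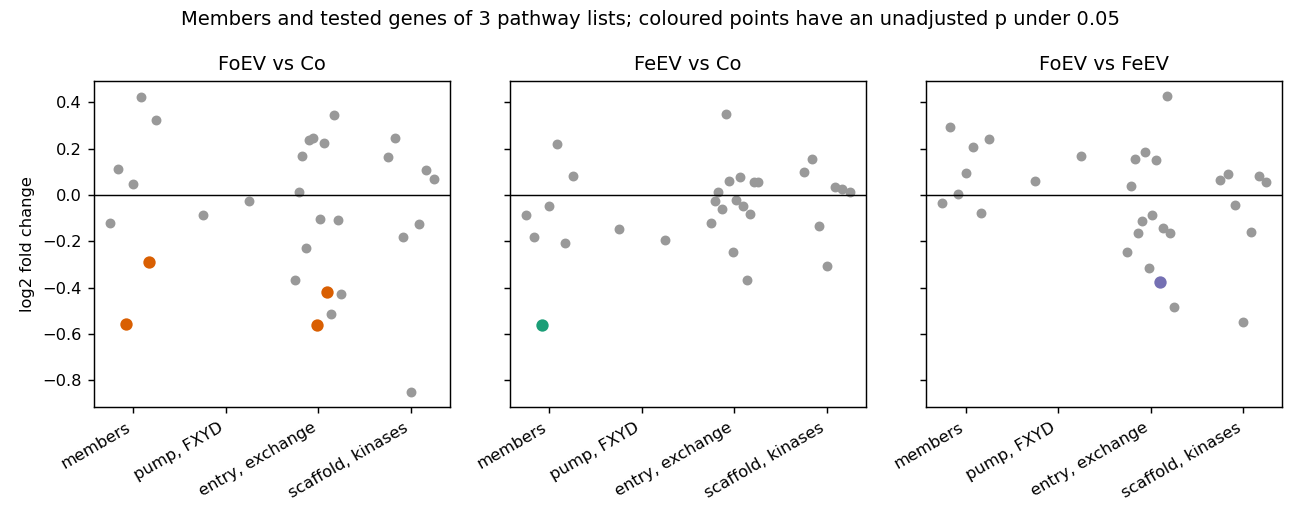
Log2 fold change (y axis) of the 7 members and of 23 tested genes of 3 pathway lists (x axis) in each comparison, with genes at an unadjusted edgeR p under 0.05 in colour. Few points are coloured in any list: 2 of 23 pathway genes in FoEV vs. Co, 0 in FeEV vs. Co and 1 in FoEV vs. FeEV.

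Beyond the members, 53 other genes of blastocoel salt and water transport were listed, of which 1 (AQP12B) was not matched by symbol and 23 passed the filter. By edgeR's quasi-likelihood test 0 of 23 passed an adjusted p of 0.05 in any comparison. With an unadjusted p under 0.05 there were 2 in FoEV vs. Co, both lower, 0 in FeEV vs. Co, and 1 in FoEV vs. FeEV, also lower, where 15.1%, 4.15% and 8.52% of all genes passed. The median log2 fold change of the 23 genes was -0.09 in FoEV vs. Co, -0.02 in FeEV vs. Co and -0.04 in FoEV vs. FeEV. The genes that passed belonged to the 14 tested genes of sodium and chloride entry and exchange. Of 2 other pump subunit and FXYD genes, ATP1B2 and FXYD6, and of 7 scaffold partners and SLC12A2 kinases, 0 passed.

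SLC26A4 (gene 530241), the anion exchanger pendrin, was at 40.01 CPM ± 8.01 in Co, 33.7 CPM ± 6.75 in FeEV and 27.2 CPM ± 6.56 in FoEV, with a log2 fold change of -0.56 in FoEV vs. Co (SE 0.17, edgeR adjusted p = 0.152). SLC4A7 (gene 510209), a sodium bicarbonate cotransporter, was at 85.5 CPM ± 26.2 in Co, 83.0 CPM ± 13.2 in FeEV and 63.8 CPM ± 4.89 in FoEV (SD, n = 5). Its log2 fold change was -0.42 in FoEV vs. Co (SE 0.16, edgeR adjusted p = 0.230) and -0.37 in FoEV vs. FeEV (edgeR adjusted p = 0.556). When no filter on low counts was used, the adjusted p in FoEV vs. Co became 0.0295 for SLC26A4 and 0.0471 for SLC4A7, in a setting where 173 of 25470 genes passed. No other alternative brought either gene under an adjusted p of 0.05. With single libraries left out, the edgeR adjusted p in FoEV vs. Co ran from 0.0954 to 0.353 for SLC26A4. For SLC4A7 it ran from 0.108 to 0.490, with an unadjusted p under 0.05 in 13 of 15 fits.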

How the data were processed

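The authors counted single-end reads per gene on ARS-UCD1.2, using the annotation of NCBI, and deposited these counts without normalization, for all 34773 genes and for 10832 genes kept by a CPM filter. The paper names QuasR Qcount as the counter, whereas the submitters' processing notes list Trim Galore 0.4.3.1, HISAT2 2.1.0 and featureCounts 1.6.3. The paper gives a culture 1 day longer than the labels. The library kit selects a strand, and the strand setting of the counting is not given in the sources used here.

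Libraries were grouped by the treatment in their labels. The filtered counts were scaled by TMM and fitted with edgeR 4.0.16 in R 4.3.3 (estimateDisp, glmQLFit with robust=TRUE, glmQLFTest), with treatment as the only factor. The common biological coefficient of variation was 0.159. Correlations used log2 CPM with a prior count of 2. Alternatives were DESeq2 1.42.0 size factors and Wald test, a robust likelihood ratio test, other filters, blocks, thinning to 2136713 counts, removal of rRNA genes and leaving out each library. Any 2 libraries of a treatment differed beyond sampling noise (lowest chi-square per degree of freedom 3.74). Of the filtered genes, 10709 had an entry in the reference gene table, which is of a later assembly, so no coordinates are given.

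The members and lists were chosen with earlier results of these data known. Of the listed genes, 3 are not reported here, and the counts over the lists leave them out. Besides the members, the text names each remaining pathway gene at an unadjusted p under 0.05 where none passed the adjusted one, and the 3 genes most like ATP1B1 and AQP3. Intervals and floors cover the spread between libraries and the counting error only, as no molecular identifiers were used.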

Additional observations from a re-analysis of the deposited data

Results flagged for a closer look

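Among 27 groups of 5 libraries (7 members and 2 pathway genes in 3 treatments), 2 held a library far from the other 4, by the gap to its nearest neighbour relative to the whole range (critical value 0.71). Chance flags about 1 in 20 groups. AQP11 was at 32.34 CPM in FeEV replicate 4, the other FeEV libraries being at 51.0 to 57.2 CPM. SLC26A4 was at 45.68 CPM in FeEV replicate 2, the other FeEV libraries being at 29.1 to 31.6 CPM.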

How the results depend on the processing

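No member passed an adjusted p of 0.05 in any of the 25 alternatives (DESeq2 gave ATP1B1 none in FoEV vs. Co). The number of members at an unadjusted p under 0.05 moved: in FoEV vs. Co from 2 to 4 with the replicate block (17.6% of all genes) and 1 with the library number of the descriptions as block (14.6%), in FeEV vs. Co from 1 to 0 with the library number as block and 2 with counts thinned to the smallest total, and in FoEV vs. FeEV from 0 to 1 each with no filter, the replicate block and thinning. With single libraries left out it ran from 0 to 2 in FeEV vs. Co (0 without FeEV replicate 2, 2 without FeEV replicate 3) and from 0 to 1 in FoEV vs. FeEV (1 without FoEV replicate 2, 3 or 5). The 4 are ATP1B1, SLC12A2, SLC9A3R1 and FXYD4. The 1 is SLC9A3R1, which was higher (0.40), while ATP1B1 was at -0.48 in FoEV vs. Co and -0.55 in FeEV vs. Co and SLC12A2 at -0.29 in FoEV vs. Co with this block. The cause was not tested. In FoEV vs. FeEV the 1 member is AQP3 in each setting, also without FoEV replicate 2, 3 or 5. Its log2 fold change there was 0.28 with no filter, 0.26 with the replicate block and 0.33 with thinning. Whether the title numbers pair the pools cannot be told from the correlations. Same-numbered libraries had correlated deviations (r over 0.1) in 3 of 5 pairs of FeEV and Co and 1 of 5 of FoEV and Co. For FoEV and FeEV it was 3 of 5 pairs. Number 5 had r = 0.42, 0.35 and 0.44, in the same order, and 5 of 15 libraries correlated best with their own number. With the replicate block 57 of 10832 genes passed an edgeR adjusted p of 0.05 in FoEV vs. Co, against 1 without it. Libraries with the same number in the descriptions had r over 0.1 in 1 of 3, 1 of 3 and 1 of 4 pairs, in the same order. As the sources used here state no pairing of the pools, both blocks are given only here.

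The difference of ATP1B1 kept its direction against Co when single libraries were left out, from -0.65 to -0.46 in FoEV vs. Co (unadjusted p under 0.05 in 15 of 15) and from -0.65 to -0.43 in FeEV vs. Co (14 of 15), as did that of SLC12A2 in FoEV vs. Co, from -0.37 to -0.23 (15 of 15). Log2 fold changes near 0 changed sign. That of ATP1B1 in FoEV vs. FeEV became -0.001375 with DESeq2 size factors, -0.00172 with the DESeq2 Wald test, -0.01412 with the robust likelihood ratio test, -0.005986 with no filter and -0.0009053 with filterByExpr. With the library number as block, ATP1B3 in FoEV vs. Co became -0.09879.

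Leaving out single libraries also turned some signs. In FoEV vs. Co the range was -0.04494 to 0.1442 for ATP1B3, -0.03039 to 0.2032 for AQP3 and -0.241 to 0.01256 for AQP11. In FeEV vs. Co it was -0.1684 to 0.04838 for ATP1B3, -0.1843 to 0.04562 for AQP11, -0.02366 to 0.2121 for SLC9A3R1 and -0.03909 to 0.4378 for FXYD4. In FoEV vs. FeEV it was -0.1245 to 0.1011 for ATP1B1 and -0.1546 to 0.04831 for AQP11. Depth limits ATP1B1 most among the tested members, and AQP8 could not be tested.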
